A study of Rattus norvegicus with 28 samples.

Results

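RNA from rat neural progenitor cells exposed to injured spinal cord, labelled 3 weeks, was compared with RNA from the same kind of cells kept under culture conditions. The comparison used 7 of the 28 libraries of the series: injured week 3 replicates 1, 2 and 4 (n = 3) and culture replicates 1 to 4 (n = 4). Injured week 3 replicate 3 was left out because many expressed genes read 0 there: its 3 companions each predicted at least 20 counts for 9636 genes, and 2755 of those were at 0. Each companion, predicted in the same way but from the other companions alone, had at most 2 such genes. The series concerns transplantation of neural progenitor cells into spinal cord injury in rodents, and its other groups were exposed to injured or uninjured cord and carry labels of 2, 3 or 4 weeks. The labels give no genotype, strain, age or agent for either group. They do not say in what way cells met the cord, what the weeks are counted from, or whether cord tissue was removed. Nothing in them ties the samples of a group to different animals or cultures, and p-values then reflect the spread among these samples alone, which may be technical. In such bulk samples, fewer cells of a type and less RNA per cell cannot be told apart, nor can a change in the cells be told apart from RNA of surrounding tissue.

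Neural progenitor cells divide in culture and can give rise to neurons, astrocytes and oligodendrocytes. An injured spinal cord holds dying cells, infiltrating immune cells, reactive astrocytes and new extracellular matrix, and progenitors placed there meet signals that the culture medium lacks. The deposited table gives rat Ensembl identifiers without names, and 0 of its 32545 identifiers matched the RefSeq gene table used here. Genes are therefore given by identifier, no role is stated for any of them, and neither the neural progenitor markers nor those of other cell types were checked.

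The 3 injured week 3 libraries held 3147432 to 3489857 counts and the 4 culture libraries 5273204 to 6908508, so the groups also differ in depth. Reads were counted without molecular identifiers, so counts may repeat molecules. The counting interval of a ratio and the floors below cover counting error only. The intervals of fitted fold changes also include the spread among libraries. The 2 genes with the most counts took 18.1% to 23.1% of each injured week 3 library and 21.7% to 26.0% of each culture library, and neither passed the test described next (edgeR adjusted p = 0.203 and 0.283). Injured week 3 libraries detected 15464 ± 153 genes (SD, n = 3) and culture libraries 17060 ± 211 (SD, n = 4). After thinning all 7 libraries to the smallest total, the numbers were 15393 ± 176 (SD, n = 3) and 16018 ± 95 (SD, n = 4). The groups did not overlap at equal depth, and the exact permutation p was 0.0571 (two-sided), the smallest that 3 against 4 libraries allow.

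The 2 groups separated along the main axis of variation. The first principal component of log2 CPM (counts scaled to library size, the common measure of a gene's level in a library) held 79.8% of the variance over 12610 genes. Injured week 3 libraries lay between -74.9 and -69.2 on it and culture libraries between 52.3 and 57.2. The second component held 7.28% and spread the injured week 3 libraries from -31.4 to 37.5, while the culture libraries stayed between -6.64 and 2.83. Spearman correlations across genes were 0.971 to 0.972 within injured week 3, 0.986 to 0.989 within culture and 0.857 to 0.869 between the groups. Genes are not independent replicates, so these values carry no p. The larger spread of the injured group was also seen at equal depth. Among 10228 genes with a mean of at least 20 counts after thinning, the median SD of log2 counts was 0.239 in injured week 3 (n = 3) and 0.178 in culture (n = 4), a difference that was not tested.

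**Figure D1:**
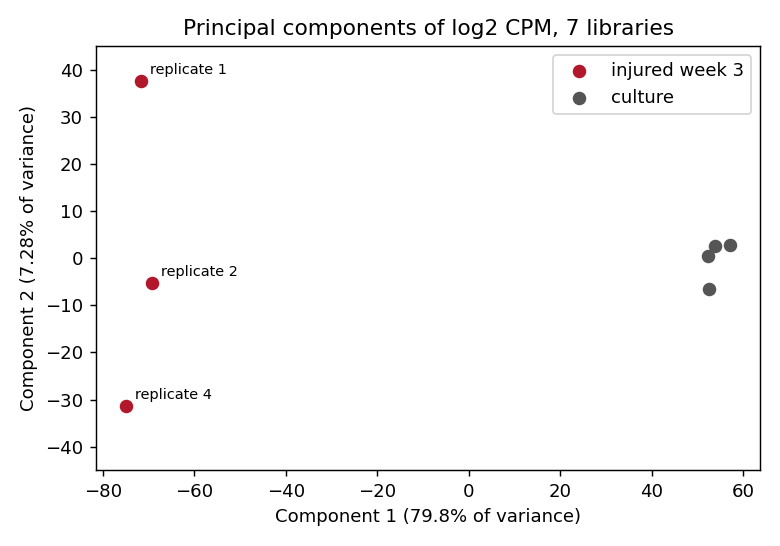
The first 2 principal components of log2 CPM in the 7 libraries, with the percent of variance on each axis and 1 point per library. Culture libraries sit together at 52.3 to 57.2 on component 1, and the 3 injured week 3 libraries sit at -74.9 to -69.2 but far apart on component 2.

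Expression differed between injured week 3 and culture for 6558 of 12610 genes tested, which is 52.0% of them. Of these, 3298 were higher (26.2% of genes tested) and 3260 lower (25.9%) in injured week 3 (edgeR quasi-likelihood test on the 7 libraries, Benjamini-Hochberg adjusted p under 0.05). When library totals alone set the scale, 3715 were higher and 2859 lower, so the balance of directions depends on the scaling. The number of calls was 3679 with the left-out replicate 3 added, and 2744 when 27 libraries of the series shared 1 estimate of the spread. The biological coefficient of variation was 13.8% and the median standard error of a log2 fold change was 0.166. Of the 6558 genes, 6031 had no overlap between the 3 injured and the 4 culture libraries in CPM. Over all genes tested, 6654 (52.8%) had no overlap, 3305 higher (26.2%) and 3349 lower (26.6%). The median log2 fold change over all genes tested was 0.0174, a centre that the TMM scaling sets near 0, and 0.0946 with library totals alone.

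For the 6052 genes that did not pass, the intervals show how large a change the data still allow. The 95% interval of the fold change lay within 2-fold in either direction for 4878 of them, and within 1.5-fold for 3199. A change below 2-fold is thus not excluded for most of them, and for the other genes larger changes also fit the counts. Conversely, 265 genes passed the test although their whole interval lay within 1.5-fold, and the smallest change called was 0.26 on the log2 scale.

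**Figure D2:**
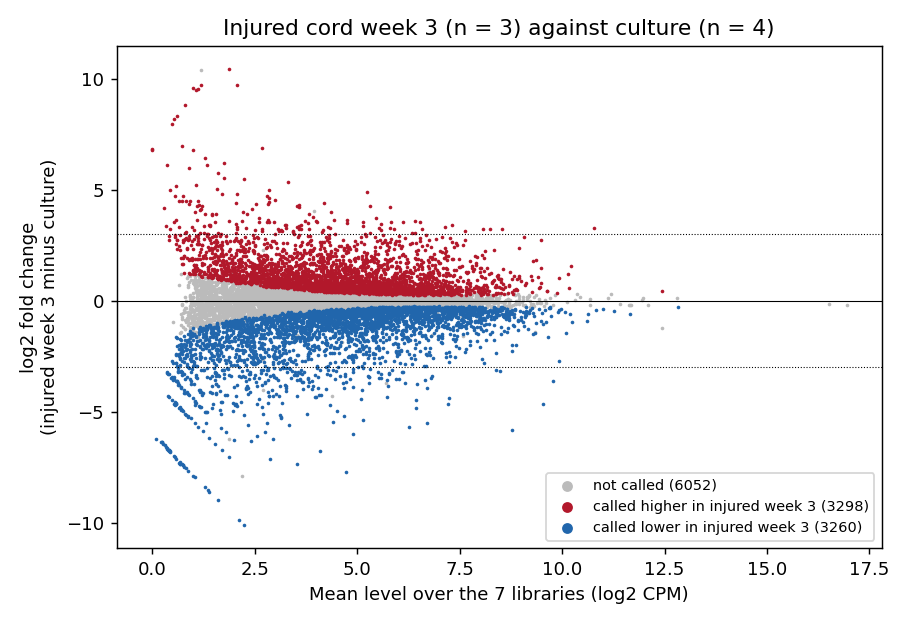
Each point is 1 of 12610 genes, with its mean level over the 7 libraries (log2 CPM) on the x axis and its log2 fold change, injured week 3 minus culture, on the y axis. Dotted lines mark 8-fold changes, and below the lower line 360 called genes stand against 155 above the upper one.

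Large falls outnumbered large rises, while the calls of any size were nearly equal in number with TMM factors and mostly rises with library totals alone. Falls led with DESeq2 (2995 higher, 3307 lower) and without a low count filter (3308 higher, 3726 lower). In the main fit, among changes under 1.5-fold, 969 genes were higher and 807 lower in injured week 3. From 2-fold upward, 1409 genes were higher and 1641 lower. At 4-fold or more there were 473 higher and 749 lower, and at 8-fold or more 155 higher (1.23% of genes tested) and 360 lower (2.85%). At 16-fold or more the numbers were 60 and 166. Falls of at least 8-fold were thus 2.32 times as many as rises of that size. The ratio was 1.91 to 1.99 in the fits without 1 culture library, where the groups were equal in size.

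Part of this excess lay in genes with almost no counts left after exposure. Of the 360 genes at least 8-fold lower, 130 had at most 3 counts over the 3 injured week 3 libraries, and the size of their fitted change depends on the prior count. Of the 155 genes at least 8-fold higher, 18 had at most 3 counts over the culture libraries. Of the genes tested, 36 had 0 counts in all 3 injured week 3 libraries, and all 36 were called. A further 11 had 0 counts in all 4 culture libraries, and 10 of them were called. These genes passed the low count filter only through the group where they were found, so their calls were nearly given in advance. With all libraries thinned to the smallest total the called numbers were 19 and 10, and 297 genes were at least 8-fold lower against 143 higher. Among genes with a mean level of at least 4 log2 CPM, where counts are ample, 71 were at least 8-fold lower and 37 higher. That mean holds 4 culture and 3 injured libraries, so a gene that falls reaches it more easily than one with an equal rise.

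**Figure D3:**
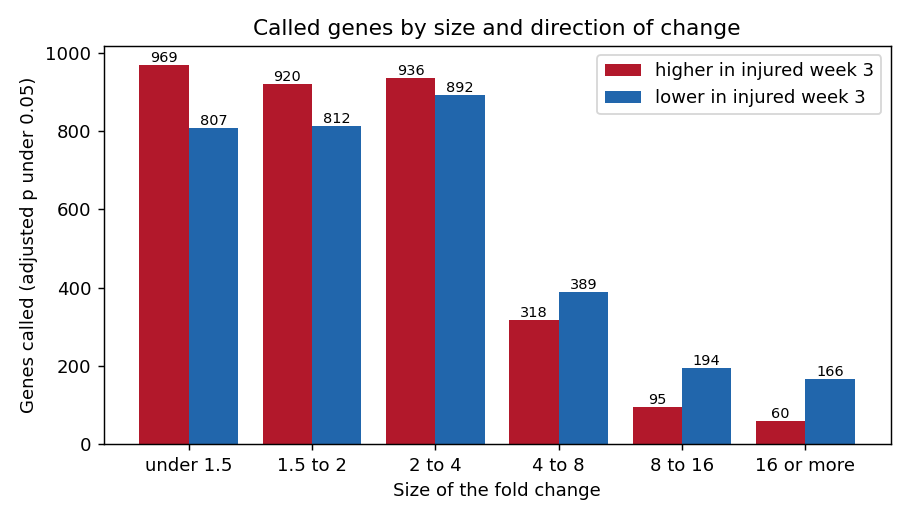
Bars give the number of genes called higher (red) or lower (blue) in injured week 3 than in culture, in 6 classes of fold change. Rises lead up to 4-fold (936 against 892 at 2-fold to 4-fold) and falls lead above it (60 against 166 at 16-fold or more).

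The direction of change also varied with the level of expression. The tested genes were put in 5 classes of 2522 by their mean over the 7 libraries. This mean holds 4 culture and 3 injured libraries, so a fall places a gene higher than a rise between the same levels. Class and direction are therefore not independent. In the class with the lowest levels (up to 2.66 log2 CPM), 552 genes were higher and 713 lower in injured week 3. In the 3 middle classes rises were in the majority, with 663 against 551, 770 against 543 and 713 against 615. In the class with the highest levels (from 6.17 log2 CPM), 600 genes were higher and 838 lower. That last excess of falls turned to 703 higher and 679 lower when library totals alone set the scale. It was 853 lower against 572 higher with RLE factors and 849 against 601 with upper quartile factors.

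Called changes were larger among genes of low level, where errors are also larger. The median size of a called change was 1.94 on the log2 scale in the class of lowest levels and 0.598 in the class of highest levels. The median standard errors in these classes were 0.398 and 0.118. The share of genes called was nevertheless similar, at 50.2% in the lowest and 57.0% in the highest class.

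**Figure D4:**
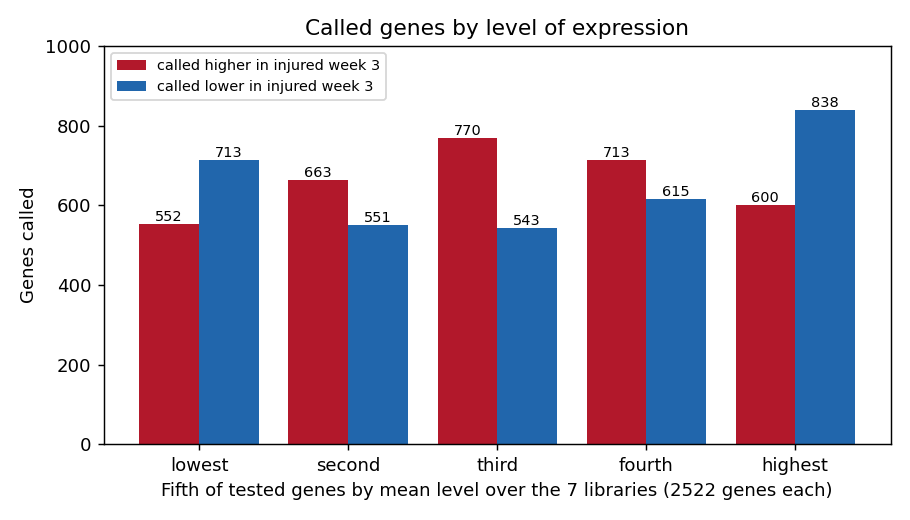
Bars give the genes called higher (red) or lower (blue) in injured week 3 in 5 classes of 2522 tested genes, ordered by mean level over the 7 libraries. Falls lead in the lowest class (713 against 552) and the highest class (838 against 600, an excess that reverses when only library totals set the scale), and rises lead in the 3 between.

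Measured as shares of each library, the called genes held a large part of the counts. Genes called higher held 26.1% to 28.8% of the counts in injured week 3 libraries and 12.5% to 13.4% in culture libraries. Genes called lower held 17.4% to 18.5% and 29.7% to 31.8%. Genes at least 8-fold higher took 2.03% ± 0.252 of counts in injured week 3 (SD, n = 3) and 0.182% ± 0.0148 in culture (SD, n = 4). Genes at least 8-fold lower took 0.153% ± 0.00462 and 2.40% ± 0.274. These genes were chosen on the same libraries, so the shares describe their weight and test nothing.

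Among genes with a mean of at least 2 log2 CPM, an adjusted p under 0.05 and no overlap between the groups, 2696 were higher and 2627 lower. The 2 with the largest rise and the 2 with the largest fall are described here. Their levels were the reason for choosing them.

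ENSRNOG00000029886 had the largest rise. It stood at 136.8, 20.7 and 122.9 CPM in injured week 3 replicates 1, 2 and 4, and at 0, 0.191, 0.182 and 0 CPM in culture replicates 1 to 4. The groups lay far apart, but injured replicate 2 was well below its companions. On the log2 scale the fold change was 9.70 ± 1.37 (SE, edgeR adjusted p = 0.00197). The culture group held only 2 counts, against 962 in the injured group, a ratio of 1070 with an exact 95% counting interval of 297 to 8890. In the left-out injured week 3 replicate 3 the gene had 5 counts, or 0.755 CPM on a separate scale fitted with that library included. Many expressed genes read 0 in that library, so this low value cannot be read as a smaller rise.

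ENSRNOG00000033609 had the second largest rise and the steadier one. It stood at 64.7, 86.7 and 85.4 CPM in injured week 3 replicates 1, 2 and 4. In culture replicates 1 to 4 it stood at 1.07, 0.191, 1.28 and 0.147 CPM. All injured libraries were high and close together, with a mean of 78.9 ± 12.4 CPM (SD, n = 3) against 0.670 ± 0.585 CPM in culture (SD, n = 4). On the log2 scale the fold change was 6.87 ± 0.288 (SE, edgeR adjusted p = 1.02e-12). The left-out replicate 3 held 651 counts, or 98.3 CPM on a separate scale fitted with that library included. Many expressed genes read 0 there, so its CPM is not comparable with the values above and adds no support.

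ENSRNOG00000009779 had the largest fall. Culture replicates 1 to 4 stood at 29.4, 24.3, 33.0 and 30.3 CPM, and all 3 injured week 3 libraries had 0 counts. With a floor of 3 counts over the injured group, the gene fell at least 101.3-fold (edgeR adjusted p = 2.88e-11). A count of 0 over the group allows a level of up to 0.290 CPM. The left-out replicate 3 had 0 counts too, but many expressed genes read 0 in that library, so this adds no support.

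ENSRNOG00000047393 showed the same pattern. Culture replicates 1 to 4 stood at 27.4, 24.1, 21.3 and 25.4 CPM, and the 3 injured week 3 libraries had 0 counts. The left-out replicate 3 was also at 0, which again adds no support. With the floor over the group it fell at least 85.0-fold (edgeR adjusted p = 5.77e-11).

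The labels hold other groups in which these 4 genes can be followed. A fit of 19 libraries with a mean for each of culture, uninjured week 3, injured week 3 without replicate 3, uninjured week 4 and injured week 4 (n = 4 each, and 3 for injured week 3) gave the tests below. Week 2 libraries were left out because they held at most 446331 counts. In that fit, 8615 of 13586 genes (63.4%) differed between injured and uninjured week 3, 4160 higher (30.6%) and 4455 lower (32.8%) in injured (edgeR adjusted p under 0.05). Between injured weeks 4 and 3, 5435 genes (40.0%) differed, 2970 higher (21.9%) and 2465 lower (18.1%) at week 4. These comparisons share the injured week 3 libraries with the comparison to culture. The 4 genes were chosen on those libraries, so the sizes and p-values given for them below may be biased by the choice.

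The 2 genes that rose differed in where else they were high. ENSRNOG00000033609 stood at 73.5 ± 11.7 CPM in injured week 3 (SD, n = 3) on the scale of this fit and at 0.521 ± 0.448 CPM in uninjured week 3 (SD, n = 4), beside culture at 0.632 ± 0.553 CPM (SD, n = 4). Injured week 3 was above uninjured week 3 by 6.88 ± 0.459 log2 units (SE, edgeR adjusted p = 6.74e-12). In injured week 4 it stood at 24.4 ± 4.05 CPM (SD, n = 4), a difference from injured week 3 of -1.59 ± 0.298 log2 units (SE, edgeR adjusted p = 0.000148). Uninjured week 4 libraries stood at 1.53 ± 1.25 CPM (SD, n = 4). Among these 5 groups the gene was thus high in both injured groups, without overlap with the other 3. It was not high in the shallow week 2 groups, with 1 count of 1221176 after injured and 2 of 1120753 after uninjured exposure.

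ENSRNOG00000029886 was high after every exposure in this fit. Uninjured week 3 libraries stood at 58.4, 45.1, 77.7 and 55.9 CPM and uninjured week 4 libraries at 40.8, 76.7, 134 and 140 CPM. Injured week 4 libraries stood at 28.8, 152, 12.4 and 27.6 CPM. The 4 exposed groups overlapped, and all of them lay above culture, whose highest library was at 0.180 CPM. Injured against uninjured week 3 gave a difference of 0.55 ± 0.714 log2 units (SE, edgeR adjusted p = 0.520). Injured week 4 against week 3 gave -0.68 ± 0.719 (SE, edgeR adjusted p = 0.487). Without injured week 4 replicate 2, the library at 152 CPM, the latter was -1.93 and passed the test. In the shallow week 2 groups the gene had 199 counts of 1221176 after injured and 782 of 1120753 after uninjured exposure.

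Both genes that fell were low or at 0 in the other exposed groups of this fit as well. ENSRNOG00000009779 had 0 counts in injured week 3, 13 counts in uninjured week 3 (0.727 ± 0.538 CPM, SD, n = 4), 31 in uninjured week 4 (2.20 ± 1.49 CPM, SD, n = 4) and 3 in injured week 4. The 13 counts of uninjured week 3 lay in 3 libraries, and replicate 3 was at 0 like the injured libraries, so these 2 groups overlapped. The gene entered the 19-library fit through its culture level and did not pass the low count filter when only these 2 groups were fitted, so no difference between them is read from it. ENSRNOG00000047393 had 0 counts in injured week 3, uninjured week 3 and injured week 4, and 6 counts in uninjured week 4, all in replicate 3. Culture, at 23.1 ± 2.38 CPM (SD, n = 4), was the one group of the 5 in which it was found at more than a few counts. In the shallow week 2 groups it had 4 counts of 1221176 after injured and 0 of 1120753 after uninjured exposure. There ENSRNOG00000009779 had 0 counts after injured and 1 after uninjured exposure.

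**Figure D5:**
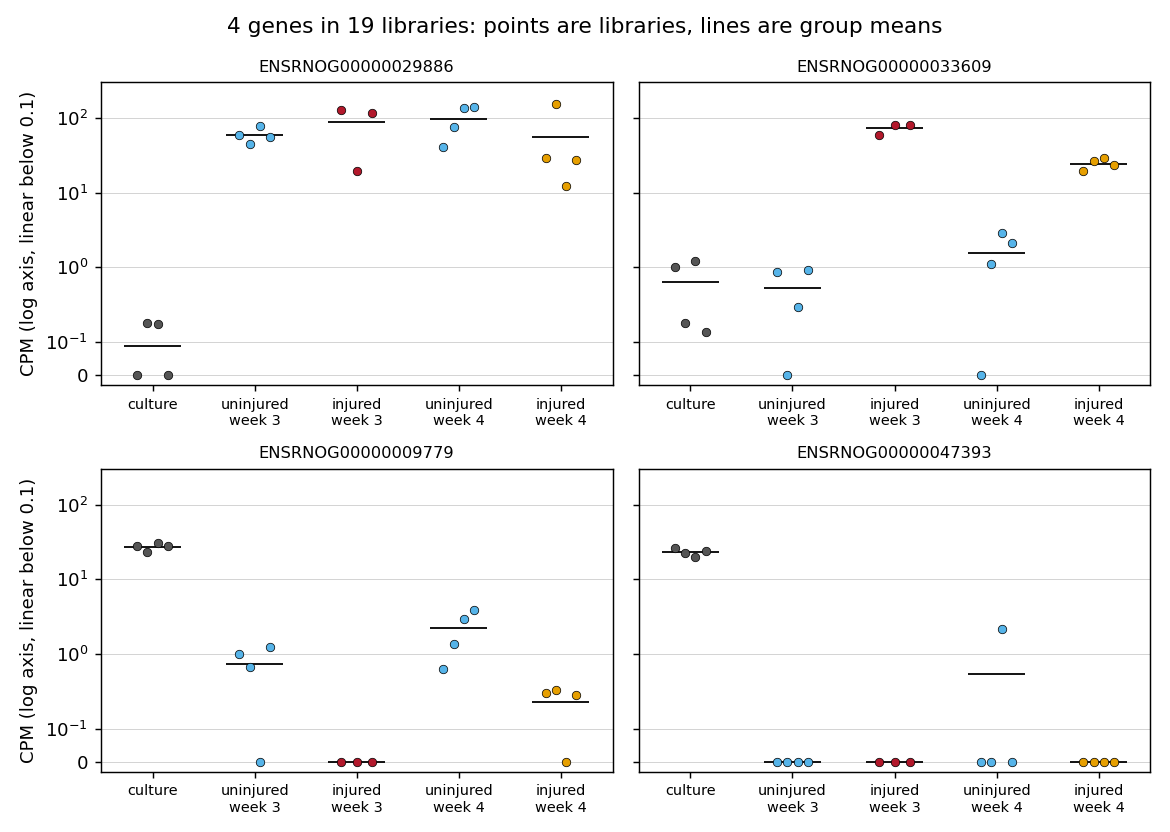
CPM of the 4 genes in 19 libraries of 5 groups, on a log axis that is linear below 0.1 CPM, with points for libraries and lines for group means. ENSRNOG00000033609 is high in both injured groups, ENSRNOG00000029886 in all 4 exposed groups, and the 2 genes that fell are high in culture alone.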

How the data were processed

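Raw counts per gene were deposited for 28 libraries of 7 groups, in 1 table without normalization. Per the labels' protocols, total RNA was made into stranded libraries with a kit for very small inputs. Per the submitters' processing notes, reads were handled with featureCounts 1.5.1, STAR 2.5.1, Trim Galore 0.4.1, Picard, StringTie 1.3.3 and FastQC 0.11.5, with no role given. The build they name is a mouse build, while the identifiers are rat. How strand, duplicates and reads shared by near-identical genes were treated is not given in the sources used here. Counts of such genes are uncertain.

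The members, gene lists and tests were chosen with earlier results of these data known. Genes passing filterByExpr (12610) in the 7 libraries were fitted with edgeR 4.0.16 under R 4.3.3 (robust quasi-likelihood, TMM factors, 5 residual degrees of freedom) and p-values were adjusted over all of them. Standard errors were derived from the test: the log2 change fitted without a prior count, divided by the square root of its F statistic. The intervals of fitted fold changes use these errors, while the printed log2 fold changes include a prior count. The fit was tested on simulated data. No pair of libraries was identical, and within groups all pairs differed by more than sampling noise (chi-square per degree of freedom of 5.36 to 12.8). Replicate numbers follow the order of deposition.

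The 51 gene lists and the 16 genes to be named whatever their result were not used, because no identifier could be paired with a symbol. The naming rule asked for the 12 largest changes each way among genes with a symbol, an adjusted p under 0.05, a mean of at least 2 log2 CPM and no overlap. It was applied without the symbol, and 2 genes each way are printed.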

Additional observations from a re-analysis of the deposited data

Results flagged for a closer look

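Of 20 sets of 4 values, each for 1 measure or gene in 1 group, 5 held a library far from its companions by Dixon's ratio of gap to range. Chance would give about 1, but the same libraries recur in these sets, so they are not independent. The 2 genes with the most counts took 26.0% of culture replicate 1 and 21.7% to 22% of the other culture libraries (ratio 0.930). The share of counts on genes at least 8-fold higher in injured week 3 was 0.204% in culture replicate 3 and 0.172% to 0.176% in the other culture libraries (ratio 0.875). ENSRNOG00000029886 stood at 152 CPM in injured week 4 replicate 2 and at 12.4 to 28.8 CPM in its companions (ratio 0.883). ENSRNOG00000009779 had 1 count in each of 3 injured week 4 libraries and 0 in the other (ratio 0.856), and ENSRNOG00000047393 had 6 counts in uninjured week 4 replicate 3 and 0 in the others (ratio 1). The last pair rests on too few counts to be read further.

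The change from culture differed between exposures for 1 of the 4 genes described, and a second passed the test on too few counts to be read. ENSRNOG00000033609 was higher in injured than in uninjured week 3, by 6.88 on the log2 scale, and the difference of injured week 4 from injured week 3 was -1.59. ENSRNOG00000009779 had a fitted log2 fold change of -4.76 between injured and uninjured week 3. It rests on 0 against 13 counts, uninjured week 3 replicate 3 was also at 0, and the gene did not pass the low count filter with these 2 groups alone.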

How the results depend on the processing

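The comparison with culture gave 6558 calls. Over the 7 fits that left out 1 library each, it gave 5720 to 6705 calls (2870 to 3307 higher, 2838 to 3398 lower) with 154 to 176 genes at least 8-fold higher and 298 to 414 at least 8-fold lower. With injured week 3 replicate 3 added, 3679 genes were called (1798 higher, 1881 lower), 0.841% of 12133 genes tested were at least 8-fold higher (1.23% without it), and ENSRNOG00000029886 did not pass the low count filter. With 27 libraries in 1 fit there were 2744 calls (1313 higher, 1431 lower), and a test against a fold change of 1.5 gave 3085 (1423 higher, 1662 lower). DESeq2 1.42.0 put 237 genes at least 8-fold higher and 541 lower among 15580 tested, and without a low count filter the numbers were 301 and 608 among 20630. With library totals only, 56.5% of 6574 calls were higher (3715 higher, 2859 lower), against 50.3% with TMM factors. The cause of these shifts was not tested, except that the stricter test asks for a larger change. Falls of at least 8-fold outnumbered rises 1.91 to 3.14 times over the 20 alternatives. Of these, the fit without the 2 genes with the most counts was chosen after seeing the data. The ratio was 1.91 to 1.99 without 1 culture library, where group sizes were equal, and 2.33 to 2.48 without 1 injured library. Whether it depends on group size was not tested. Of the 4 genes described, each kept its direction and its call against culture wherever it was tested, with adjusted p-values of at most 0.0204 (limma 3.58.1). They were chosen for the largest changes in these same libraries, so this was likely from the start and adds no support. The calls between injured and uninjured week 3 (8615) ran from 7537 to 8778, and those between injured weeks 4 and 3 (5435) from 4463 to 5552, over 9 alternatives each. Leaving out mitochondrially encoded genes and counting list members were not run, because the identifiers carry no names. No paired analysis was possible because the replicate numbers only follow the order of deposition. Depth and group cannot be told apart beyond the thinning given, since every culture library was deeper than every injured week 3 library.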
